A study of Mus musculus with 6 samples.

Results

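The mouse carboxylesterase genes Ces1d, Ces1e, Ces1f, Ces1g, Ces2a, Ces2b, Ces2c, Ces2e and Ces2g were followed across intestinal organoids that were wild type (WT), lacked Smad4 (Smad4 KO), or lacked Smad4 and received TGF-β. The 9 symbols were named with earlier results of these data known, and their rows were found by matching the Ensembl gene IDs of the count table to them. They are 9 of 31227 genes in the table and 9 of the 19 genes there with a Ces symbol, and the other 10, which were scarce or at 0, are described after them. Organoids are cultures of intestinal epithelium that grow from stem cells. All groups grew in medium with EGF at 50 ng/ml, Noggin at 100 ng/ml and R-spondin1 at 500 ng/ml. Each of the 3 groups had 2 bulk RNA-seq libraries: WT organoids, Smad4 KO organoids, and Smad4 KO organoids given 0.5 nM TGF-β. Every title carries 48 h, while the protocol can mean either 48 h in TGF-β altogether or 48 h and then a further 2 days. How Smad4 was inactivated, how many organoid lines or animals stood behind each genotype, and whether the replicates were separate cultures is not given in the sources used here. A difference between lines therefore cannot be told apart from genotype, and p-values measure the spread between these libraries, which may be technical. WT organoids with TGF-β were not analysed here, and the need for Smad4 in any response to TGF-β was not tested.

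Carboxylesterases are serine hydrolases of the endoplasmic reticulum that cleave ester, amide and thioester bonds in drugs, dietary esters and lipids. Human CES1 is best known from liver and human CES2 from the small intestine and liver, where CES2 cleaves prodrugs such as irinotecan. Mice carry several copies of each, side by side on 1 chromosome, so that the Ces1 and Ces2 names stand for clusters of related genes. In mouse, Ces1d hydrolyses stored triacylglycerol in liver and fat, and Ces2c hydrolyses acylglycerols in the absorptive cells of the intestine. Several mouse Ces genes are known targets of the nuclear receptors CAR (Nr1i3) and PXR (Nr1i2), which respond to foreign compounds. SMAD4 joins receptor-activated SMAD proteins on their way to target genes in both the TGF-β and the BMP pathway.

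All 9 genes lie on chromosome 8 (GENCODE vM21, build GRCm38). The Ces1 members are on the minus strand, from Ces1d (ENSMUSG00000056973) at chr8:93166068-93197838 over Ces1e (ENSMUSG00000061959) at chr8:93201218-93229619 and Ces1f (ENSMUSG00000031725) at chr8:93256236-93279747 to Ces1g (ENSMUSG00000057074) at chr8:93302369-93337308, and each has 14 exons. The Ces2 members are on the plus strand and are more compact, with 12 exons each: Ces2a (ENSMUSG00000055730) at chr8:104734003-104741634, Ces2b (ENSMUSG00000050097) at chr8:104831572-104840093, Ces2c (ENSMUSG00000061825) at chr8:104847068-104854483, Ces2e (ENSMUSG00000031886) at chr8:104926260-104934672 and Ces2g (ENSMUSG00000031877) at chr8:104961718-104969537. Coding sequences of the Ces1 members were 74.0 to 81.5% identical to each other and those of the Ces2 members 81.3 to 91.3%, with Ces2b and Ces2c as the closest pair. Ces2a, the member whose level differed most between the genotypes, and Ces2e, the most abundant member in WT, share 83.1% of their coding bases. Their promoters are shown with those of Ces2c and Ces2g, so that these 4 neighbours can be set side by side. Promoters of 6 of the 9 members were matched in the RefSeq table (GRCm38.p6), all but those of Ces1d, Ces1f and Ces2b. The sequences below are the 250 bases before the RefSeq start, plus strand, 5′ to 3′, and capitals mark GAACTTTGCCCC or as much of its beginning as was found.
Ces2a (chr8:104733753-104734002): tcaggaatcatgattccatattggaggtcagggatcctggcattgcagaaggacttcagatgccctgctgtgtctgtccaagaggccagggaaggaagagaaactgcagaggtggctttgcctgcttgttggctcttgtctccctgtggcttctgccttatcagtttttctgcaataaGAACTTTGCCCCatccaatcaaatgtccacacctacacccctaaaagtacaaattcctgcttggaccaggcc
Ces2c (chr8:104846818-104847067): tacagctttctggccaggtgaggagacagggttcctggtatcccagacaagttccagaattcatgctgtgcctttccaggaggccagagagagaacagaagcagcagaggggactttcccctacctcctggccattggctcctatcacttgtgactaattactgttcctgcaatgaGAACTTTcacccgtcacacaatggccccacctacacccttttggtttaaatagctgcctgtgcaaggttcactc
Ces2e (chr8:104926010-104926259): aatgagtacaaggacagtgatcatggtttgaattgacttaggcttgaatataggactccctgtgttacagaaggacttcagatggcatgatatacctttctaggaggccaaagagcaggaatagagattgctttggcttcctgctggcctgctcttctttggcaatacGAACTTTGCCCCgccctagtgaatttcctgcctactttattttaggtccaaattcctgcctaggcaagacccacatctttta
Ces2g (chr8:104961468-104961717): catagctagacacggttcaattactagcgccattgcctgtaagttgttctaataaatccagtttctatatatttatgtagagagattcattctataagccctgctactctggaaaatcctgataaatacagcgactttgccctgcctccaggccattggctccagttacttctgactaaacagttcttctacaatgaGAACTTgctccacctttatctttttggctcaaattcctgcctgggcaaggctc
GAACTTTGCCCC is the longest run that Ces2a and Ces2e share in the 100 bases before the start, and it begins 72 bases before the start in Ces2a and 82 in Ces2e. Ces2c holds its first 7 letters, 74 bases before the start, and Ces2g its first 6, at 53 bases. Only beginnings of the run were searched for and marked. Ces2g also holds ACTTTGCCC, a longer piece from inside the run, farther up and unmarked. Searched on both strands of the 250-base windows, GAACTTTGCCCC was found in 3 of 32851 promoters (0.00913%) and GAACTTT in 3.28%. GAACTT was found in 11.5%, those of Ces1b, Ces1h and Ces2h among them. The longest run was taken from Ces2a and Ces2e, so their hits were fixed in advance. Its share of promoters therefore does not measure how rare such a run is. Farther up, Ces2a and Ces2e share a longer run of 17 letters. These runs were looked for after the levels were known. Their part in the levels of Ces2a and Ces2e was not tested.

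The libraries held 40.55 to 50.7 M (1e6) units of the authors' estimated counts, which is about 10.1 to 12.7 M fragments if each fragment adds 4 units, as the pile-up of low values at multiples of 4 was read. Levels are given as counts per 1e6 counts after TMM scaling (CPM), and levels of different genes are compared per kilobase of the longest coding transcript. Differences were tested with edgeR's quasi-likelihood test over 15503 genes, with Benjamini-Hochberg adjustment over all of them and a threshold of 0.05, and fold changes are of CPM. Smad4 itself, at 99.37 and 109.5 CPM in WT, was down to 21.66 and 23.07 CPM in the knockout, a 4.67-fold difference (edgeR adjusted p = 2.72e-05), and to 25.19 and 29.52 CPM in the treated libraries. Because the count covers the whole gene, it does not show how Smad4 was inactivated or what the remaining counts stand for. Enterocyte markers were abundant in every library, with a sum over 20 genes of 5069 to 15880 CPM, and the organoids also held stem, Paneth, goblet and enteroendocrine markers. Of 8 fibroblast and endothelial markers 5 were at 0 in all libraries, and the sum of the list was at most 1.027 CPM.

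In WT organoids the Ces2 genes carried most of the family's transcripts. Per kilobase, Ces2e was highest in WT with a mean of 101.2 CPM per kilobase, before Ces2c at 75.5, Ces2a at 47.1, Ces2g at 19.7, Ces1d at 16.7, Ces1f at 16.1, Ces1e at 7.33, Ces1g at 0.936 and Ces2b at 0.725 CPM per kilobase. Neighbours in this order whose WT libraries overlapped were Ces1d with Ces1f and Ces1g with Ces2b. In Smad4 KO the order of the top changed to Ces2a at 634, Ces2c at 318.5 and Ces2e at 243.3 CPM per kilobase, and Ces2g at 33.4 overlapped with Ces1f at 32.6 CPM per kilobase, before Ces1d at 27.3, Ces1e at 15.1, Ces2b at 2.06 and Ces1g at 0.79. The treated libraries kept Ces2a first at 362.9 CPM per kilobase, before Ces2c at 192.9 and Ces2e at 115.0, with no overlap between neighbours from Ces2a over Ces2g at 15.9 down to Ces1f at 10.9 CPM per kilobase. Among 15494 genes ranked per kilobase, Ces2a was at places 1516 and 1589 in the WT libraries, 117 and 125 in the Smad4 KO libraries and 179 and 178 in the treated libraries.

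**Figure D1:**
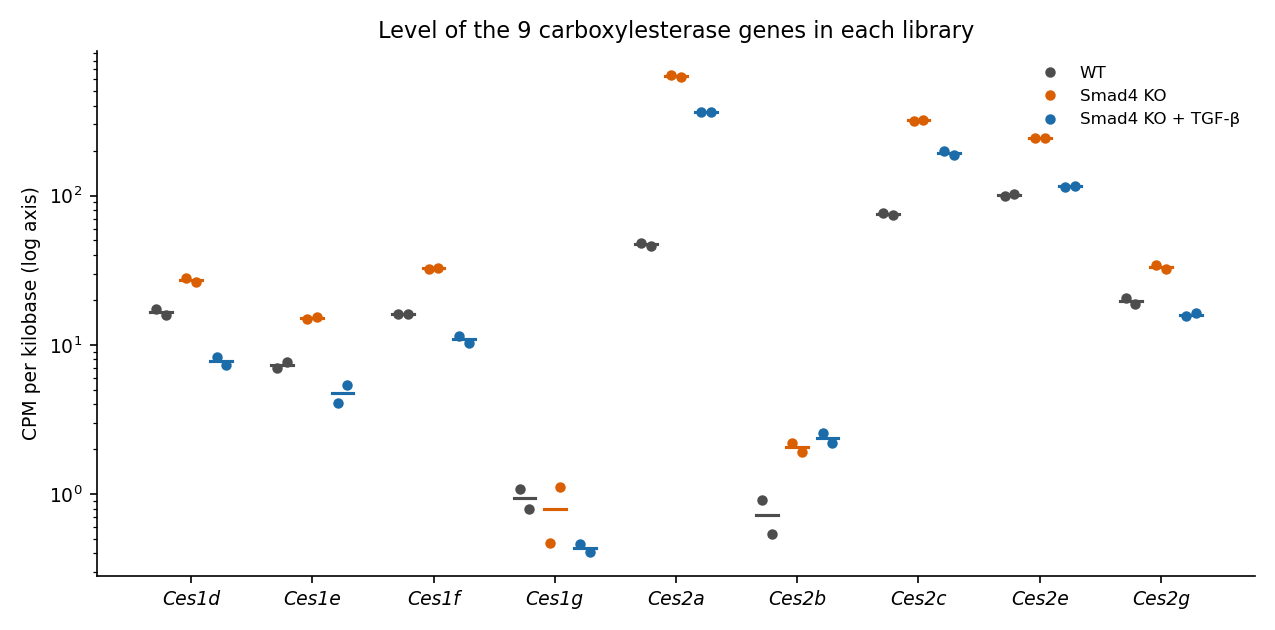
Level of each of the 9 genes in CPM per kilobase on a log axis, with 1 point per library and a line at the mean of the 2 libraries of a group (grey WT, orange Smad4 KO, blue TGF-β-treated Smad4 KO). Ces2a went from a mean of 47.1 in WT to 634 in Smad4 KO, while Ces1g and Ces2b stayed below 3 CPM per kilobase in all libraries.

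Smad4 KO against WT compares the genotypes without added TGF-β. Of the 9 members, all of which passed the filter on low counts, 8 were higher in Smad4 KO, none was lower and 1, Ces1g, did not pass. Over all genes tested, 30.3% were called in this comparison, 16.9% higher and 13.4% lower. The 2084 genes called lower became 1166 and 1227 without WT replicates 1 and 2 and 1387 without the first Smad4 KO replicate. The median log2 fold change of the members was 1.04, beside -0.021 over all genes tested. The 5 Ces2 members had a median of 1.5 and the 4 Ces1 members one of 0.86. TGF-β-treated against untreated Smad4 KO asks what changed with the ligand in the Smad4 KO organoids. Here 7 members were lower, none was higher and 2, Ces1g and Ces2b, did not pass, while 16.3% of all genes tested were called, 8.48% lower and 7.78% higher. The 1206 genes behind the share called higher became 656 and 658 without treated replicates 1 and 2 and 768 without Smad4 KO replicate 2, and the 1315 called lower became 848 to 876 without any 1 of the 4 libraries compared. Their median was -1.07, beside -0.008 over all genes tested, and it was -0.8 for the Ces2 and -1.62 for the Ces1 members. These comparisons share the untreated Smad4 KO libraries, so a high value there raises one difference and lowers the other. Treated Smad4 KO against WT, which shares libraries with both, divided the members: Ces2a, Ces2b, Ces2c and Ces2e were higher than in WT, Ces1d, Ces1e, Ces1f and Ces2g were lower, and Ces1g did not pass. In that comparison 39.7% of all genes tested were called, 20.7% higher and 19.0% lower.

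Ces2a had the largest difference of the members. Its libraries stood at 94.48 and 90.18 CPM in WT organoids, 1266 and 1219 CPM in Smad4 KO, and 715.5 and 707.2 CPM with TGF-β. The 3 groups were far apart, with the treated libraries between the others. Smad4 KO libraries held 13.5-fold more Ces2a than WT libraries (3.75 ± 0.04 on the log2 scale, fitted value ± SE from 2 libraries per group as for all later values, edgeR adjusted p = 7.08e-08). The treated level was 1.75-fold lower than in untreated Smad4 KO (-0.8 ± 0.03, edgeR adjusted p = 4.79e-05), and it remained 7.7-fold above WT (edgeR adjusted p = 1.23e-07). Reads of Ces2a and of copies elsewhere may be divided between them, since 10.7% of its 100-base windows also occur in other annotated transcripts, most often in Gm7208, which was not analysed here, and 22.2% of its 50-base windows do.

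Ces2c, the intestinal acylglycerol hydrolase, had the next largest difference between the genotypes among the members. It was measured at 151.6 and 145.9 CPM in WT organoids, 620.7 and 634.3 CPM in Smad4 KO and 392.3 and 367.7 CPM with TGF-β. As for Ces2a, the treated libraries lay between the others without overlap. Ces2c was 4.22-fold higher in Smad4 KO than in WT (2.08 ± 0.05, edgeR adjusted p = 1.44e-06), 1.65-fold lower with TGF-β than without (-0.72 ± 0.04, edgeR adjusted p = 0.000167) and 2.55-fold higher in the treated libraries than in WT (edgeR adjusted p = 4.6e-06). The share of its 100-base windows found in other transcripts was 16.0%, the highest of the members, and 42.2% for 50-base windows. Most often these were in the pseudogene Ces2d-ps. That pseudogene has no row in the count table, so its reads cannot be followed apart from those of Ces2c.

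Ces2e, the most abundant member in WT, had a smaller fitted fold between the genotypes than Ces2a and Ces2c. The libraries held 268.2 and 278.1 CPM in WT organoids, 659.6 and 653.8 CPM in Smad4 KO and 305.9 and 315 CPM with TGF-β. It was 2.4-fold higher in Smad4 KO (1.27 ± 0.04, edgeR adjusted p = 3.37e-06) and 2.12-fold lower with TGF-β than without (-1.08 ± 0.04, edgeR adjusted p = 2.28e-05). The treated libraries ended 1.14-fold above WT, a small difference that did not overlap and that passed (0.18 ± 0.03, edgeR adjusted p = 0.00678). None of its 100-base windows and 3.4% of its 50-base windows were shared with another annotated transcript.

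Ces2g followed at a lower level, with 58.63 and 53.99 CPM in WT organoids, 98.58 and 92.57 CPM in Smad4 KO, and 44.56 and 46.6 CPM with TGF-β. Unlike the other Ces2 members, its treated libraries lay below those of WT. It was 1.7-fold higher in Smad4 KO (0.76 ± 0.07, edgeR adjusted p = 0.000577) and 2.1-fold lower with TGF-β than without (-1.07 ± 0.07, edgeR adjusted p = 0.000275). The difference between treated and WT libraries was 1.24-fold (-0.31 ± 0.07, edgeR adjusted p = 0.0176). That last call was lost without WT replicate 1 (adjusted p = 0.095) and without treated replicate 1 (0.0974) or 2 (0.0532).

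Ces2b was scarce, at 3.094 and 1.848 CPM in WT organoids, 7.483 and 6.566 CPM in Smad4 KO and 8.699 and 7.523 CPM with TGF-β. Both Smad4 KO groups stood above WT, and the treated libraries were not below the untreated ones. The gene was 2.83-fold higher in Smad4 KO than in WT (1.5 ± 0.28, edgeR adjusted p = 0.00841) and 3.27-fold higher in treated libraries than in WT (edgeR adjusted p = 0.00367). With TGF-β against without, the log2 difference of 0.21 had a 95% confidence interval of -0.44 to 0.85 and did not pass (edgeR adjusted p = 0.686). That interval does not reach the -0.72 and -0.8 fitted for Ces2c and Ces2a, although the difference between genes was not tested. Other annotated transcripts shared 0.1% of the 100-base windows of Ces2b and 9.8% of its 50-base windows, the latter most often Ces2c. Ces2c was far more abundant, and whether its reads add to the Ces2b counts was not tested.

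**Figure D2:**
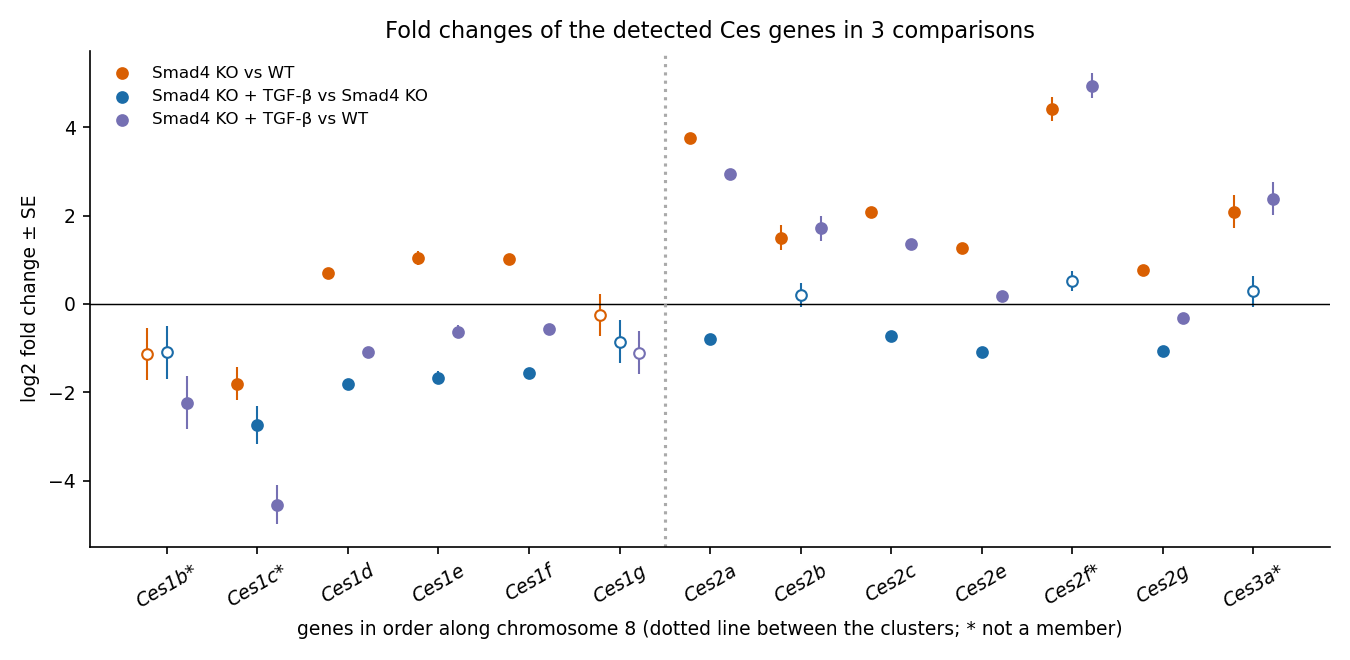
log2 fold change with its SE for the detected Ces genes except Ces2h, in their order along chromosome 8, in 3 comparisons (orange Smad4 KO against WT, blue TGF-β-treated against untreated Smad4 KO, purple treated Smad4 KO against WT). Filled points passed at an adjusted p under 0.05 and open points did not, genes with an asterisk are not among the 9, and the purple points are above 0 for Ces2a (2.95), Ces2b, Ces2c, Ces2e, Ces2f (4.94) and Ces3a (2.38) and below 0 for Ces1b (-2.23), Ces1c (-4.54), Ces1d (-1.09), Ces1e, Ces1f, Ces1g (-1.1, open) and Ces2g.

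The make-up of the Ces2 pool differed between the genotypes. Per kilobase, the summed level of the 7 detected Ces2 genes, Ces2f and Ces2h included, was 246.0 and 242.9 in WT, 1245 and 1223 in Smad4 KO and 699.7 and 686.2 CPM per kilobase with TGF-β. Ces2a made up 19.6 and 18.9% of this sum in WT, 51.9 and 50.9% in Smad4 KO and 52.2 and 52.6% in the treated libraries. Ces2e went from 40.4 and 42.4% in WT to 19.6 and 19.8% in Smad4 KO and 16.2 and 17.0% with TGF-β. The ratio of Ces2a to Ces2e per kilobase was 0.485 and 0.447 in WT, 2.64 and 2.57 in Smad4 KO and 3.22 and 3.09 in the treated libraries. So the level of the pool in the treated libraries lay between WT and Smad4 KO, while this ratio did not lie between them. Ces2c kept a similar part throughout, between 25.3 and 31.3%, and Ces2g made up 7.77 to 8.33% in WT and 2.23 to 2.77% in the other groups.

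**Figure D3:**
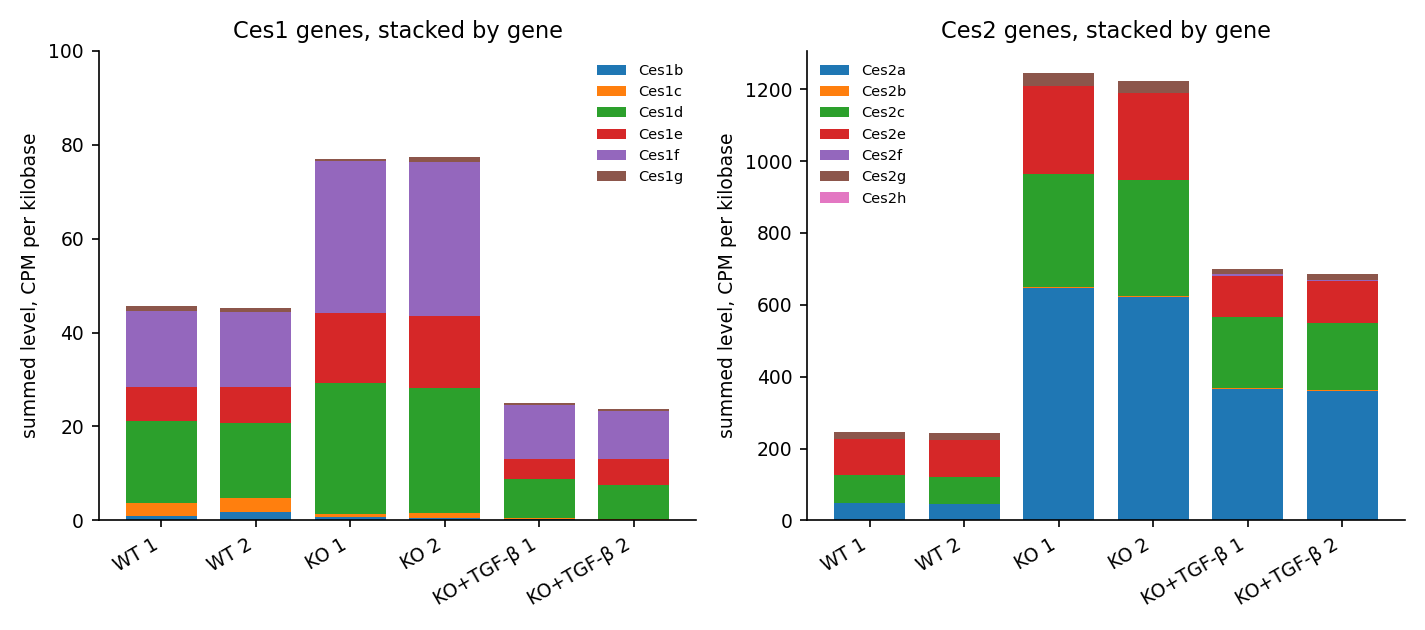
Summed level of the detected Ces1 genes (left) and Ces2 genes (right) in each library in CPM per kilobase, stacked by gene, with a separate scale for each panel and KO for Smad4 KO. The Ces2 sum was 246.0 and 242.9 in WT and 1245 and 1223 in Smad4 KO, and the Ces1 sum was lowest in the treated libraries (24.9 and 23.8).

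The Ces1 members were less abundant than the main Ces2 genes, and Ces1d, Ces1e and Ces1f stood in the same order of groups. Ces1d, the triacylglycerol hydrolase, was at 34.95 and 31.9 CPM in WT organoids, 56.17 and 53.17 CPM in Smad4 KO and 16.73 and 14.66 CPM with TGF-β. Its treated libraries were the lowest and its untreated Smad4 KO libraries the highest, without overlap. Ces1d was 1.64-fold higher in Smad4 KO than in WT (0.71 ± 0.1, edgeR adjusted p = 0.00277), 3.48-fold lower with TGF-β than without (-1.8 ± 0.1, edgeR adjusted p = 0.000137) and 2.13-fold lower in treated libraries than in WT (edgeR adjusted p = 0.000323). The fitted decrease with TGF-β was the largest among the members.

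Ces1f, another mouse lipid hydrolase known from liver, stood at 31.19 and 30.99 CPM in WT organoids, 62.05 and 63.33 CPM in Smad4 KO and 22.16 and 19.95 CPM with TGF-β. It was 2.02-fold higher in Smad4 KO (1.01 ± 0.08, edgeR adjusted p = 0.000297), 2.98-fold lower with TGF-β (-1.57 ± 0.08, edgeR adjusted p = 0.000109) and 1.48-fold lower in treated libraries than in WT (edgeR adjusted p = 0.0024). Ces1e, known as egasyn, which holds β-glucuronidase in the endoplasmic reticulum, was at 14.61 and 15.79 CPM in WT organoids, 30.87 and 31.84 CPM in Smad4 KO and 8.514 and 11.13 CPM with TGF-β. The order of the groups was the one seen for Ces1d and Ces1f. Ces1e was 2.06-fold higher in Smad4 KO (1.04 ± 0.15, edgeR adjusted p = 0.00276) and 3.19-fold lower with TGF-β (-1.67 ± 0.15, edgeR adjusted p = 0.000812). Between treated and WT libraries it was 1.55-fold lower (edgeR adjusted p = 0.016), a call lost without WT replicate 2 (0.0751) and without treated replicate 1 (0.0577).

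Ces1g, whose loss in mice raises blood lipids, was scarce, at 2.578 and 1.894 CPM in WT organoids, 1.12 and 2.651 CPM in Smad4 KO and 1.111 and 0.9803 CPM with TGF-β. The Smad4 KO libraries fell on either side of those of WT. The log2 difference between Smad4 KO and WT was -0.25 with a 95% confidence interval of -1.4 to 0.91 (edgeR adjusted p = 0.745), and it turned to 0.24 without Smad4 KO replicate 1. Neither the comparison of treated with untreated Smad4 KO (-0.85, edgeR adjusted p = 0.316) nor that of treated Smad4 KO with WT (-1.1, edgeR adjusted p = 0.124) passed. No 100-base window of a Ces1 member was shared with another annotated transcript. Summed over the 6 detected Ces1 genes, the level was 45.6 and 45.2 in WT, 76.9 and 77.5 in Smad4 KO and 24.9 and 23.8 CPM per kilobase with TGF-β. Ces1d, Ces1e and Ces1f together made up most of it in every library, with Ces1f at 35.5 and 35.6% in WT and 43.6 to 46.1% in the treated libraries.

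Of the other 10 genes with a Ces symbol, Ces1a, Ces1h, Ces3b, Ces4a and Ces5a were at 0 in all libraries. Ces1c, the esterase of mouse plasma, lies next to Ces1d and stood at 5.328 and 5.476 CPM in WT organoids, 1.12 and 1.982 CPM in Smad4 KO and 0.185 and 0.274 CPM with TGF-β. The fall in Smad4 KO was 3.48-fold (-1.8 ± 0.37, edgeR adjusted p = 0.0123), a call lost without WT replicate 1 (0.059) or 2 (0.0602), and 6.69-fold lower with TGF-β than without (edgeR adjusted p = 0.00729). In treated libraries it was 23.3-fold below WT (edgeR adjusted p = 0.00037). The treated libraries together held 20 units, or few fragments, so the size of these last folds is loose. Ces1b, the next gene along and 88.8% identical to Ces1c over the coding bases, was at 1.757 and 3.56 CPM in WT organoids, 1.374 and 1.041 CPM in Smad4 KO and 0.81 and 0.319 CPM with TGF-β, and did not pass between the genotypes (edgeR adjusted p = 0.191). Between treated and WT libraries Ces1b was 4.69-fold lower (edgeR adjusted p = 0.0272), a call lost without WT replicate 2 (0.149) and without treated replicate 2 (0.102).

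Ces2f, inside the Ces2 cluster, rose from 0.229 and 0.183 CPM in WT to 4.607 and 4.336 CPM in Smad4 KO, and stood at 6.825 and 6.019 CPM with TGF-β. The difference between genotypes was 21.3-fold (4.41 ± 0.28, edgeR adjusted p = 0.000102), against a WT level that rests on 20 units over its libraries, and the difference with TGF-β did not pass (0.52 ± 0.22, edgeR adjusted p = 0.179). Against the same low WT level the treated libraries were 30.6-fold higher (edgeR adjusted p = 4.05e-05). Ces3a was 4.26-fold higher in Smad4 KO, at 3.182 and 2.75 CPM against 0.879 and 0.502 CPM in WT (edgeR adjusted p = 0.00735), and stood at 4.095 and 3.146 CPM with TGF-β (edgeR adjusted p = 0.663 against untreated), with 9.1% of its 100-base windows shared, most often with Ces3b. The treated libraries were 5.2-fold above WT (edgeR adjusted p = 0.00317). Ces2h stayed between 0 and 0.764 CPM. Past Ces2h the row of Ces genes goes on with Ces3a, Ces3b and Ces4a. Among other genes averaging 5 CPM or more, the nearest, Ciao2b at 92.0 kb before Ces2a and Cbfb at 20.6 kb after Ces4a, passed in none of the 3 comparisons. Ciao2b was at 14.65 to 20.45 CPM and Cbfb at 66.34 to 78.78 CPM over the libraries. These neighbours were chosen after the values were seen.

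The enterocyte markers, whose products absorb and digest nutrients, moved in the same comparisons. Of 20 markers, 16 were higher and 2 lower in Smad4 KO than in WT (median log2 fold change 1.31). With TGF-β against without, 1 was higher and 17 were lower (median -0.93). Of those lower, Apoa1 (-0.12) lost its call without Smad4 KO replicate 1 (-0.14) or 2 (-0.11) or treated replicate 2 (-0.1). Apob (-0.13) lost its call without the first replicate of either group. Over all genes tested, 16.9% were called higher and 13.4% lower between the genotypes, and 7.78% higher and 8.48% lower with TGF-β. This list and those below were written with earlier results of these data known. The summed level of the 20 markers was 5069 to 5078 CPM in WT organoids, 15820 to 15880 CPM in Smad4 KO and 11230 to 11290 CPM in the treated libraries, and none was at 0. In bulk RNA, fewer cells of a type and less RNA per cell cannot be told apart, and the part of the enterocyte share in the Ces values was not tested. Sis, the brush border sucrase-isomaltase, was at 1212 and 1218 CPM in WT organoids, 2774 and 2759 CPM in Smad4 KO and 1182 and 1185 CPM with TGF-β, so its treated libraries were back near WT, as those of Ces2e were. Apob was at 460.4 and 448 CPM in WT organoids, 2840 and 2769 CPM in Smad4 KO and 2528 and 2608 CPM with TGF-β, so the enterocyte markers did not move as a single block.

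Markers of other epithelial cells also differed between the groups. The summed level of 10 stem cell markers was 7152 to 7268 CPM in WT organoids, 4315 to 4330 CPM in Smad4 KO and 2930 to 2964 CPM with TGF-β. Olfm4 had the highest mean of them over all libraries, at 1107 to 3990 CPM. In the treated libraries Slc12a2, at 1131 and 1115 CPM, stood slightly above Olfm4, at 1107 and 1113 CPM. Of 10 Paneth cell markers 9 were in the table, and their sum was 8540 to 8553 CPM in WT organoids, 3381 to 3545 CPM in Smad4 KO and 3408 to 3528 CPM with TGF-β. Goblet cell markers summed to 4714 to 4716, 3739 to 3845 and 1941 to 1955 CPM in the same order, and enteroendocrine markers to 1034 to 1041, 416.9 to 432.7 and 396.8 to 413.2 CPM. Markers of the fetal-like, regenerating epithelium had their highest sum with TGF-β. Their sums in that order were 410.1 to 445.7, 1065 to 1076 and 4486 to 4561 CPM. Not every gene followed the sum of its list. Between the genotypes, 7 of 9 fetal-like markers were called higher and 1 lower, and 2 of 10 goblet markers higher and 6 lower. Of 9 Paneth markers, 2 were called higher and 1 lower with TGF-β than without. The shares of all genes tested were 16.9% higher and 13.4% lower between the genotypes, and 7.78% and 8.48% with TGF-β. The tuft cell list summed to 14.2 to 22.65 CPM over all libraries. None of these summed levels had the order of groups seen for the Ces2 sum, highest in Smad4 KO. The part of these cell types in the Ces values was not tested.

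Ces1d and Ces1f are known from liver and fat, so markers of those tissues were read too. Of 10 hepatocyte markers, Fgb, Fga and Ahsg were at 0 in all libraries and the other 7 were above 0 in some. The list's sum was 3462 to 3520 CPM in WT organoids, 1426 to 1454 CPM in Smad4 KO and 662.6 to 692.3 CPM with TGF-β, mostly from Cps1, which the intestine also expresses, at 652.2 to 3492 CPM. Ttr, which carries thyroid hormone and retinol-binding protein, was at 14.88 and 14.76, 17.49 and 18.21, and 7.08 and 8.39 CPM in the same order. Of 6 hepatocyte markers tested, Cps1 and Cyp2e1 were lower in Smad4 KO than in WT, Cps1, Cyp2e1 and Ttr were lower with TGF-β than without, and none was higher. Of 8 adipocyte markers, Adipoq, Lep and Plin1 were at 0 everywhere, and the sum was 10.36 to 12.66 CPM in WT organoids and 16.28 to 22.09 CPM in the other groups. The part of these markers in the Ces values was not tested. Leukocyte markers summed to 5.538 to 6.959 CPM in the untreated groups and 12.86 to 13.79 CPM with TGF-β, with Adgre1 at 0 and Laptm5 the main difference, at 7.126 and 7.432 CPM in the treated libraries and 0.0913 to 0.439 CPM in the others.

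Genes that make, store and export neutral lipid, the substrate of several of these enzymes, also differed between the genotypes. Of 21 such genes 18 were higher and 1 was lower in Smad4 KO than in WT, with a median log2 fold change of 0.86. With TGF-β against without, 1 was higher and 10 were lower, with a median of -0.38. The shares over all genes tested were 16.9% higher and 13.4% lower between the genotypes, and 7.78% and 8.48% with TGF-β. Apob, the structural protein of chylomicrons, was 6.17-fold higher in Smad4 KO (edgeR adjusted p = 7.08e-08). Mttp, which loads lipid onto it, was 3.01-fold higher (1.59 ± 0.03, edgeR adjusted p = 5.01e-07) and 1.71-fold lower with TGF-β (edgeR adjusted p = 2.36e-05). Fabp1, a fatty acid carrier, was 2.69-fold higher in Smad4 KO and 2.07-fold lower with TGF-β (edgeR adjusted p = 1.91e-06 and 2.28e-05). Dgat2, which completes triacylglycerol synthesis, was 2.96-fold higher in Smad4 KO, at 116.8 and 115.3 CPM against 40.33 and 38.01 CPM, and stood at 139.8 and 141.9 CPM with TGF-β. It was the 1 gene called higher with TGF-β (0.28 ± 0.05, edgeR adjusted p = 0.0174). That call was lost on leaving out any of the libraries compared, with fits of 0.26 to 0.29. Apob lost its call as lower (-0.13) without the first Smad4 KO replicate (-0.11) or the first treated replicate (-0.1). Some of these genes are also enterocyte markers.

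Hydrolases outside the Ces family were read as well. Of 16 listed, 14 were tested, of which 8 were higher and 1 was lower in Smad4 KO than in WT (median log2 fold change 0.37). With TGF-β against without, 1 was higher and 5 were lower (median -0.09). Among all genes tested, 16.9% were called higher and 13.4% lower between the genotypes, and 7.78% and 8.48% with TGF-β. Bche, the butyrylcholinesterase and a relative of the carboxylesterases, was 2.3-fold higher in Smad4 KO (1.2 ± 0.05, edgeR adjusted p = 1.97e-05) and 2.13-fold lower with TGF-β (edgeR adjusted p = 7.46e-05). Ephx1 and Ephx2, the microsomal and soluble epoxide hydrolases, were 1.72-fold and 2.46-fold higher in Smad4 KO (edgeR adjusted p = 7.67e-05 and 0.000171). Ephx2 was also called lower with TGF-β (-0.55), a call lost without Smad4 KO replicate 1 (-0.47) or treated replicate 2 (-0.46). Aadac, an esterase of the endoplasmic reticulum like the Ces enzymes, was 1.58-fold lower with TGF-β (edgeR adjusted p = 0.00123), at 86.34 and 93.86 CPM against 147 and 137.9 CPM. The one listed hydrolase lower in Smad4 KO was Bphl, which in humans activates amino acid ester prodrugs, at 18.83 and 22 CPM against 31.26 and 28.64 CPM in WT, a call lost without WT replicate 1 (adjusted p = 0.0866) and without Smad4 KO replicate 1 (0.0797).

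Receptors and factors known to act on xenobiotic and intestinal genes were listed as well. Of 17, 11 were higher and none was lower in Smad4 KO than in WT (median log2 fold change 0.59), and none was higher and 8 were lower with TGF-β than without (median -0.26). For all genes tested the shares were 16.9% higher and 13.4% lower between the genotypes, and 7.78% and 8.48% with TGF-β. Hnf4g, a factor of the absorptive cells, was 3.21-fold higher in Smad4 KO and 1.92-fold lower with TGF-β (edgeR adjusted p = 5.91e-06 and 0.000136). Nr1i3, the receptor CAR, stood at 22.99 and 26.01 CPM in WT organoids, 55.74 and 58.35 CPM in Smad4 KO and 31.93 and 29.34 CPM with TGF-β. It was 2.33-fold higher in Smad4 KO (1.22 ± 0.1, edgeR adjusted p = 0.000255) and 1.86-fold lower with TGF-β than without (-0.9 ± 0.1, edgeR adjusted p = 0.0016). Nr1i2, the receptor PXR, was 1.72-fold higher in Smad4 KO (0.78 ± 0.06, edgeR adjusted p = 0.000215), while the difference with TGF-β of -0.13 did not pass (edgeR adjusted p = 0.188). Nfe2l2, among the genes called lower with TGF-β (-0.15), lost that call with a replicate block and on leaving out any of the libraries compared. Among the 11 called higher in Smad4 KO, Nr5a2 (0.47) lost its call without WT replicate 2 (0.42) and Ahr (0.73) without WT replicate 1 (0.62).

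All 14 listed CAR and PXR targets outside the Ces family were higher in Smad4 KO than in WT (median log2 fold change 1.52). The list was written with earlier results of these data known, and 16.9% of all genes tested were called higher. With TGF-β against without, 1 was higher and 10 were lower (median -0.31), and against WT 12 of the 14 were higher in the treated libraries and none was lower. Over all genes tested, 7.78% were called higher and 8.48% lower with TGF-β, and 20.7% higher and 19.0% lower against WT. Cyp2b10, the cytochrome most used as a readout of CAR, was at 47.34 and 50.97 CPM in WT organoids, 313.2 and 299 CPM in Smad4 KO and 213.7 and 209.6 CPM with TGF-β. Its treated libraries lay between the others, as those of Ces2a and Ces2c did. It was 6.23-fold higher in Smad4 KO and 1.45-fold lower with TGF-β (edgeR adjusted p = 1.44e-06 and 0.00133). Cyp3a11, the usual readout of PXR, was 5.03-fold higher in Smad4 KO and 1.89-fold lower with TGF-β (edgeR adjusted p = 1.87e-06 and 0.000137). Aldh1a1, which oxidises retinal, was 6.64-fold higher in Smad4 KO and 1.85-fold lower with TGF-β. The one target higher with TGF-β was Gsta4, a glutathione transferase, at 846.3 and 819.2 CPM against 512.2 and 521 CPM (0.69 ± 0.03, edgeR adjusted p = 6.29e-05). The part of CAR and PXR in the Ces values was not tested.

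**Figure D4:**
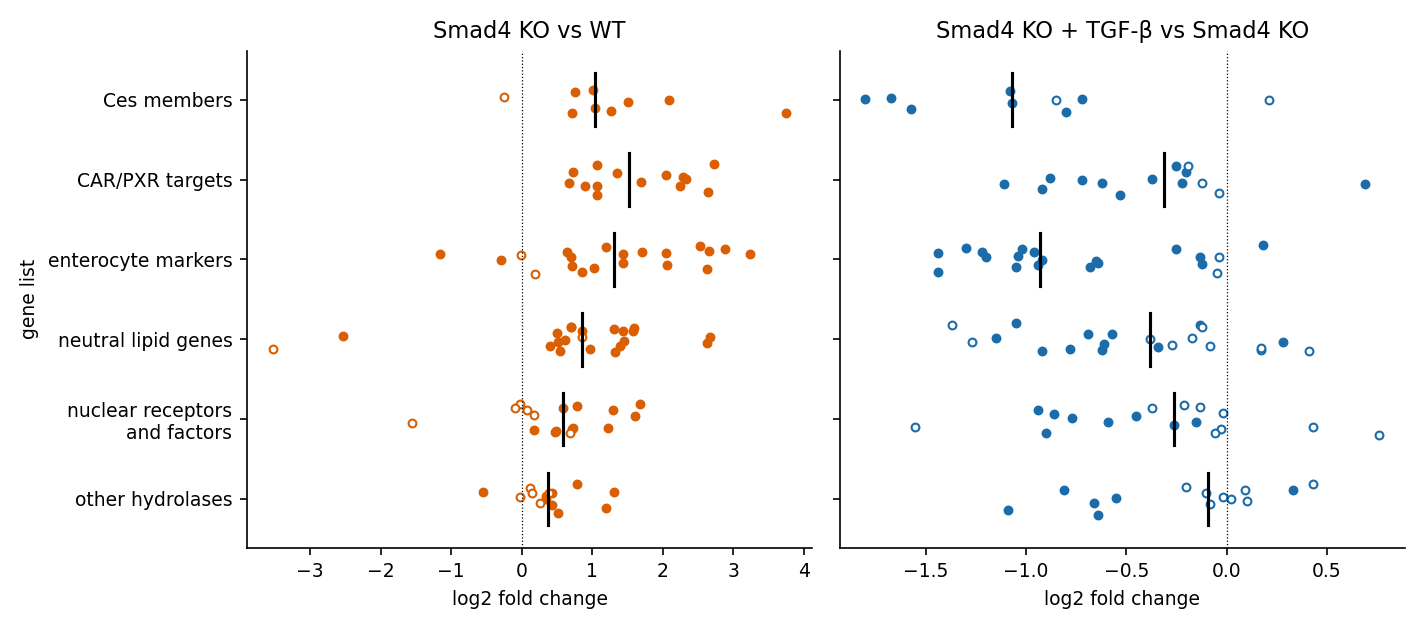
log2 fold change of each tested gene of 6 lists in Smad4 KO against WT (left) and in TGF-β-treated against untreated Smad4 KO (right), on separate scales, filled where the adjusted p is under 0.05, with a bar at the list median and vertical scatter only to part the points. The median of the Ces members was 1.04 on the left and -1.07 on the right, and that of the CAR and PXR targets 1.52 and -0.31.

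The genes most like Ces2a in pattern were sought among 10707 genes outside the Ces family with a mean of at least 5 CPM, by the root mean square difference of log2(CPM + 0.5) profiles over the 6 libraries, each centred on its mean. The closest was Ugt2b5 at a difference of 0.278, before Apoa1 at 0.291, Rbp2 at 0.378, Ifit1bl2 at 0.411 and G6pc at 0.418. Ugt2b5 stood at 13.94 and 13.51 CPM in WT organoids, 126.6 and 120.5 CPM in Smad4 KO and 77 and 71.33 CPM with TGF-β. Rbp2, which carries retinol in enterocytes, stood at 103.5 and 97.93, 774.3 and 710.4, and 465.1 and 486.2 CPM in the same groups. Apoa1 was at 175.4 and 172 CPM in WT organoids, 1617 and 1652 CPM in Smad4 KO and 1525 and 1477 CPM with TGF-β. This likeness was measured over 3 group levels with 2 libraries each, so many genes can come close to any such pattern.

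**Figure D5:**
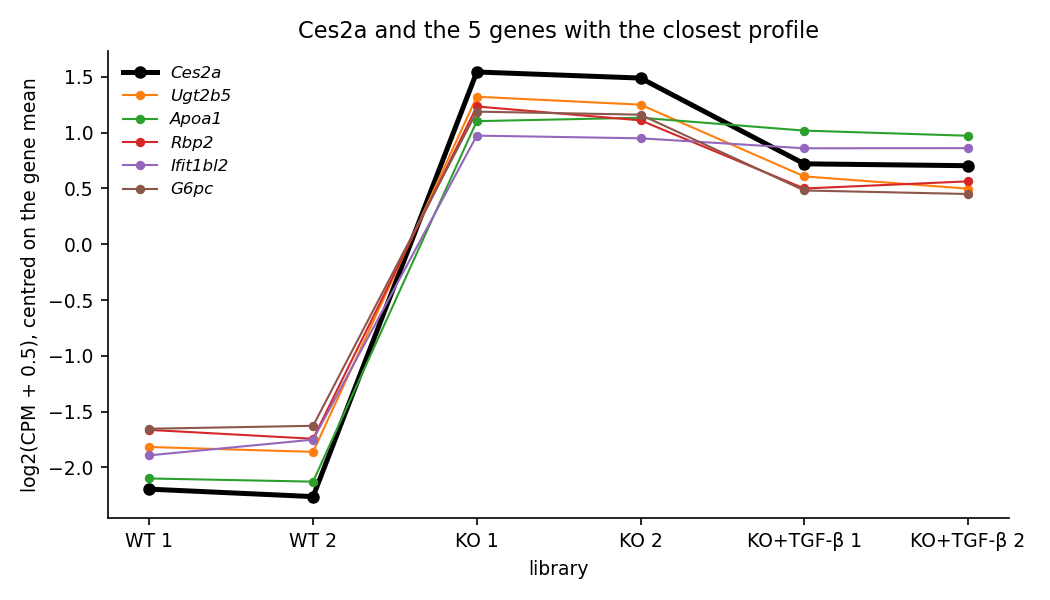
Profile of Ces2a (black) and of the 5 genes closest to it over the 6 libraries, as log2(CPM + 0.5) centred on the mean of each gene. Ces2a had the widest swing, from 94.5 and 90.2 CPM in WT to 1266 and 1219 CPM in Smad4 KO, and the treated libraries of Apoa1 and Ifit1bl2 stayed closest to untreated Smad4 KO.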

How the data were processed

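Libraries were grouped by their titles, and the 9 members and all gene lists were chosen with earlier results of these data known. The authors deposited 1 estimated count per Ensembl gene and library, as whole numbers, so no rounding was needed. The submitters' processing notes name StringTie 1.3.3b, HISAT2 2.1.0, SAMtools 1.9, FastQC 0.11.9 and build GRCm38 (mm10). Annotation release, strand setting and read length: not given in the sources used here. Antisense reads therefore cannot be separated, but no member's exons overlap another annotated gene. Estimates divide reads between near-identical copies. Multiples of 4 made up 42.3% of values between 1 and 24 (25% if even), read as 4 units per fragment.

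Replicate counts, divided by 4 on the reading of 4 units per fragment, differed beyond sampling noise (chi-square per degree of freedom 5.19 to 6.17). Each library counted as 1 sample. filterByExpr and TMM scaling preceded edgeR 4.0.16 (R 4.3.3; glmQLFit and glmQLFTest, 2-sided, 6 libraries, group only, 3 residual degrees of freedom), checked on simulated data. Folds come from this fit, and each SE was computed from the log2 fold change and its F statistic. Intervals at 95% use the total degrees of freedom of the test, which add those borrowed from other genes. Alternatives were RLE factors, DESeq2 1.42.0, no filter or a stricter one (1 CPM in 2 libraries), a replicate block, 4 libraries only, values divided by 4, and leaving out each library. Named genes were all members, Smad4, other Ces genes above 0, up to 4 per functional list with the smallest adjusted p in a comparison, the 2 most abundant per cell type list, and the 5 nearest profiles. Identity and shared windows were computed from GENCODE vM21 transcripts with Biopython 1.88.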

Additional observations from a re-analysis of the deposited data

How the results depend on the processing

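With 2 libraries per group, the fit leaves only 3 residual degrees of freedom per gene, so its tests and intervals also lean on the spread of other genes. Estimated counts of near-identical genes can trade reads. The number of members that passed was 8 for Smad4 KO against WT and 7 for treated against untreated Smad4 KO under all alternatives, replicate block included, and 6 to 8 for treated Smad4 KO against WT when 1 library was left out, otherwise 8. Over alternatives, member fold changes kept direction and side of the threshold in 345 cases, lost the call in 5 (Ces1e and Ces2g, treated against WT) and changed sign in 1: Ces1g in Smad4 KO against WT ran from -1.0 to 0.24 over the libraries left out. Ciao2b ran from -0.01 to 0.24 in the same comparison. Of all genes, 1504 to 2304 passed for treated against untreated Smad4 KO with 1 library left out (2521 with all). The 1206 genes called higher there became 656 and 658 on leaving out treated replicates 1 and 2 and 768 on leaving out Smad4 KO replicate 2, and the 1315 called lower became 848, 876 and 862, and 869 without Smad4 KO replicate 1. With 1 library left out, 3231 to 4305 passed for Smad4 KO against WT (4704 with all), where the 2084 genes called lower became 1166 and 1227 on leaving out WT replicates 1 and 2 and 1387 on leaving out the first of the Smad4 KO replicates. Same-numbered libraries did not deviate together (correlations 0.001 to 0.014), so no shared effect of the replicate number was detected. With 2 libraries per group, this cannot show whether the cultures were paired. A replicate block left 4184, 2153 and 5667 genes passing in the 3 comparisons, against 4704, 2521 and 6155. The causes were not tested.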
